A study of Mus musculus with 2 samples.

Results

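Autophagy genes were compared in the established line NE4C, mouse neural stem cells, between cultures that were grown normally (control) or exposed to homocysteine thiolactone (HTL), a cyclic form of homocysteine that reacts with lysine residues of proteins. The 40 genes form the core machinery of autophagy and its cargo receptors. They were picked by symbol from knowledge of the pathway, with earlier results of these data known. All 40 were among the 16803 genes of the deposited table. Each condition was 1 RNA-seq library, and no source says how many cultures went into it, so these 2 libraries give no spread between cultures. A general statement in the methods that data came from repeated independent experiments does not say how it applies to them. Every interval and p reflects the counting of reads alone and compares the 2 libraries, not the conditions. The dose of HTL and the time of exposure of the sequenced cultures were not stated. For NE4C cells treated to study protein homocysteine modification, the methods describe starvation in low-serum medium before HTL was added. Whether either sequenced culture was starved in this way was not stated, and the part of starvation in the results was not tested. NE4C cells derive from the brain vesicles of p53-deficient mouse embryos, a background that both cultures share.

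Autophagy encloses part of the cytoplasm in a double membrane and delivers it to the lysosome. A kinase complex starts the process, a lipid kinase complex marks the membrane, lipid-transfer proteins expand it, and a pair of ubiquitin-like conjugation systems attaches small Atg8 proteins (the LC3 and GABARAP families) to the lipid phosphatidylethanolamine. Receptors such as Sqstm1 bind cargo with one end and Atg8 proteins with the other. In neural progenitors the pathway is known for clearing damaged mitochondria and protein aggregates.

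Among the 40 genes, the 5 Atg8 genes were all higher in the HTL treatment library, by 1.38-fold to 2.01-fold, and the receptor Sqstm1 was 2.54-fold higher. The initiation genes Ulk1 and Rb1cc1, the lipid-transfer genes Atg2a and Atg2b, and the receptor Optn were 1.60-fold to 2.58-fold lower. Another initiation gene, Atg101, was 1.66-fold higher, the conjugation gene Atg12 2.17-fold and the mitophagy gene Pink1 2.49-fold. The remaining lipid kinase and conjugation genes lay between these extremes, in both directions.

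The short stretch in which an Atg8 protein is cut and attached is shown because the 5 Atg8 genes were the members that moved together. Atg4 proteases remove the residues behind a glycine near the end of the protein, and that glycine is then joined to the lipid. These are the last coding bases of each gene up to the stop codon, 5′ to 3′, with the last glycine codon in capitals (GENCODE transcripts, genome build NCBIM37, which is mm9).
Map1lc3a: tcccaagaaaccttcGGCttctga
Map1lc3b: gagacattcGGGacagcaatggctgtgtaa
Gabarap: gatgaaagcgtctatGGTctgtga
Gabarapl1: gatgaaagtgtctatGGAaaatga
Gabarapl2: ggagagaacacttttGGCttctga
All are on the plus strand. They lie at chr2:155103350-155103373 for Map1lc3a, chr8:124120641-124120670 for Map1lc3b, chr11:69808003-69808026 for Gabarap, chr6:129491162-129491185 for Gabarapl1 and chr8:114476282-114476305 for Gabarapl2. Behind the glycine, 1 codon remains before the stop in 4 of these genes, and 5 codons remain in Map1lc3b. The Atg8-binding stretch of Sqstm1, the member with the largest rise, is also shown. It docks on the folded part of an Atg8 protein, not on this tail. In the coding sequence of Sqstm1, 1 place had 3 acidic codons followed by a tryptophan codon and, 3 codons on, a leucine, isoleucine or valine codon. Both of the latter are in capitals, at chr11:50016040-50016066 on the minus strand.
Sqstm1: ggagacgatgacTGGacacatTTGtct

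The control library held 10350665 reads after rounding of the estimated counts and the HTL treatment library 9102076. A gene was called when its log2 ratio, taken after scaling to these totals, was at least 1 in size and its adjusted p in the two-sided exact binomial test was at most 0.001, the cutoffs of the study. Of the neural stem cell markers, all 6 had at least 10 reads. Nes was at 156 CPM (reads scaled to the library total) in the control and 150 CPM in the HTL treatment library. In the same order, Sox2 was at 86.4 and 31.3 CPM, Vim at 144 and 71.2 CPM and Cdh2 at 80.3 and 62.2 CPM. Sox1 was at 4.64 and 1.32 CPM and Pax6 at 6.67 and 7.25 CPM. The pluripotency factor Pou5f1, no marker of neural stem cells, was at 2423 and 2809 CPM, above each of the 6 markers, and the pluripotency factor Nanog at 48.3 and 30.2 CPM. Summed over the 6 neural stem markers the level was 478 CPM in the control and 323 CPM in the HTL treatment library, and the part of this shift in the results was not tested. Gfap, Olig1, Sox10 and Aif1, which mark glia and macrophages, had at most 3 reads in either library, and Aqp4, S100b and Ptprc were not listed. The myelin gene Mbp had 182 and 186 reads. In bulk RNA, fewer cells of a type and less RNA per cell cannot be told apart.

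Of the 40 autophagy genes, 4 were called higher, against a background of 2.81% of the 13442 genes tested. They were Sqstm1, Pink1, Atg12 and Map1lc3a. Called lower were 3 genes, Atg2a, Optn and Rb1cc1, against 7.98% of all genes tested. In either direction 10.8% of the genes tested were called. The adjusted p of the 7 genes in the exact binomial test lay between 1.59e-211 and 5.74e-11. By the adjusted p alone, without the cutoff on the log2 ratio, 15 members were higher (background 14.5%) and 8 were lower (background 24.1%). The median log2 ratio of the 40 genes was 0.049, and it was -0.14 over all genes tested. A gene at 0 thus lay above the median gene. Scaling by TMM raised the median of all genes tested by 0.13, by the median of ratios 0.14 and by the upper quartile 0.093. Over all genes tested, lower calls made up 73.9% of calls with total scaling and 58.5% with the median of ratios. Under the 3 scalings the 4 higher members, Atg2a and Optn stayed called, and Rb1cc1 fell short of the cutoff (-0.87 with TMM). With an assumed biological coefficient of variation between cultures of 0.1, edgeR's exact test called the same 7 members, and with 0.2 it called 0 of the 40, with adjusted p of those 7 between 0.0338 and 0.190.

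**Figure D1:**
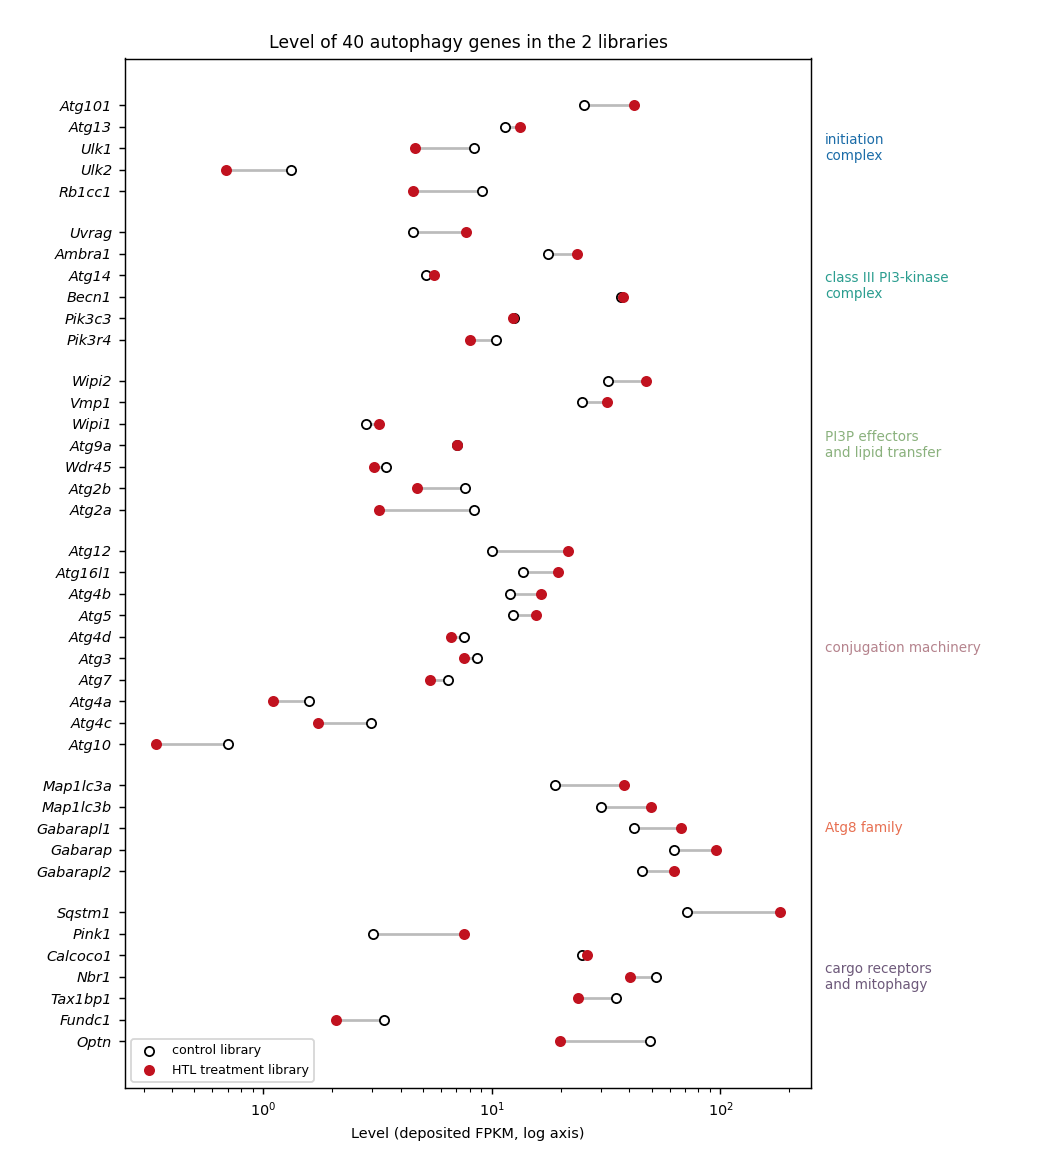
Level of each of the 40 autophagy genes in the control library (open circles) and the HTL treatment library (filled red circles), in deposited FPKM (fragments scaled to transcript length and library size) on a log axis, grouped by role. The 5 Atg8 genes all lie further right in the HTL treatment library, and Sqstm1 reaches the highest level of the set, 182 FPKM.

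The Atg8 family, whose proteins decorate the growing membrane and dock cargo receptors, was higher as a whole. Map1lc3a (gene ID 66734), an LC3 gene, counted 205 control and 362 HTL reads. Its log2 ratio was 1.004 (95% interval 0.75 to 1.26), just past the cutoff, and it was called. Map1lc3b (gene ID 67443), whose protein is the LC3 form most often used as a marker of autophagosomes, counted 529 and 776 reads. That gave a log2 ratio of 0.74 (0.58 to 0.90). These are RNA reads, and the libraries measure neither protein nor autophagic activity. The GABARAP genes act mainly in later steps of autophagosome maturation. Gabarapl1 went from 765 to 1078 reads (log2 ratio 0.68, 0.55 to 0.82), Gabarap from 714 to 963 (0.62, 0.48 to 0.76) and Gabarapl2 from 458 to 557 (0.47, 0.29 to 0.65). All 5 intervals lay above 0, all 5 genes passed the adjusted p, and 1 of them was called. Of all genes tested, 14.5% were higher by the adjusted p and 2.81% were called higher. Per transcript length, the summed level of the family was 199 FPKM in the control and 313 FPKM in the HTL treatment library. Gabarap was the most abundant of the 5 in both, with 31.5% and 30.5% of the sum. The share of Map1lc3a went from 9.55% to 12.1%. Counted back from the glycine codon over 348 bases, Map1lc3a and Map1lc3b shared 76.1% of coding bases, and Gabarap and Gabarapl1 shared 75.3%. The estimated counts of all 5 were whole numbers in both libraries, to the 2 decimals deposited.

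Cargo receptors moved in opposite directions. Sqstm1 (gene ID 18412; NCBIM37 chromosome 11, 50012868 to 50024329, minus strand), which links ubiquitin-tagged cargo to Atg8 proteins and is itself degraded by autophagy, counted 1494 reads without HTL and 3332 with it. Its log2 ratio was 1.34 (1.25 to 1.43), at percentile 97.7 of all genes tested. Optn (gene ID 71648; chromosome 2, 4941688 to 4985097, minus strand), a ubiquitin-binding receptor for mitochondria and bacteria, counted 1237 and 438 reads. Its log2 ratio was -1.31 (-1.47 to -1.15), at percentile 6.95. Both were called, in opposite directions. In the control library Sqstm1 was at 71.3 FPKM and Optn at 49.4 FPKM, and in the HTL treatment library they were at 182 and 19.9 FPKM. The other receptors for ubiquitin-tagged cargo were not called. Nbr1, a receptor related to Sqstm1 in structure, counted 2499 and 1710 reads, which gave a log2 ratio of -0.36 (-0.45 to -0.27). Tax1bp1 counted 1200 and 721 reads, giving a log2 ratio of -0.55 (-0.68 to -0.42). Calcoco1, a receptor for endoplasmic reticulum and Golgi membrane, had a log2 ratio of 0.065 with an interval that spanned 0 (-0.088 to 0.22).

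Of the members that act on mitochondria, Pink1 (gene ID 68943; chromosome 4, 137869324 to 137882222, minus strand), the kinase that accumulates on damaged mitochondria, counted 74 and 163 reads. Its log2 ratio was 1.32 (0.92 to 1.74), and it was called. The level stayed low, at 3.01 and 7.54 FPKM. Fundc1, a receptor in the outer mitochondrial membrane, counted 104 and 56 reads, which gave a log2 ratio of -0.70 (-1.20 to -0.23), and was not called. Park2, the ubiquitin ligase that Pink1 activates, was no member of the set and counted 2684 and 3146 reads, giving a log2 ratio of 0.41 (0.34 to 0.49). Bnip3, a hypoxia-induced mitophagy receptor outside the set, was the lowest of the related receptors, at 1638 reads against 136 and a log2 ratio of -3.40 (-3.67 to -3.15), and was called. Its relative Bnip3l was at -0.72 (-0.85 to -0.60).

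**Figure D2:**
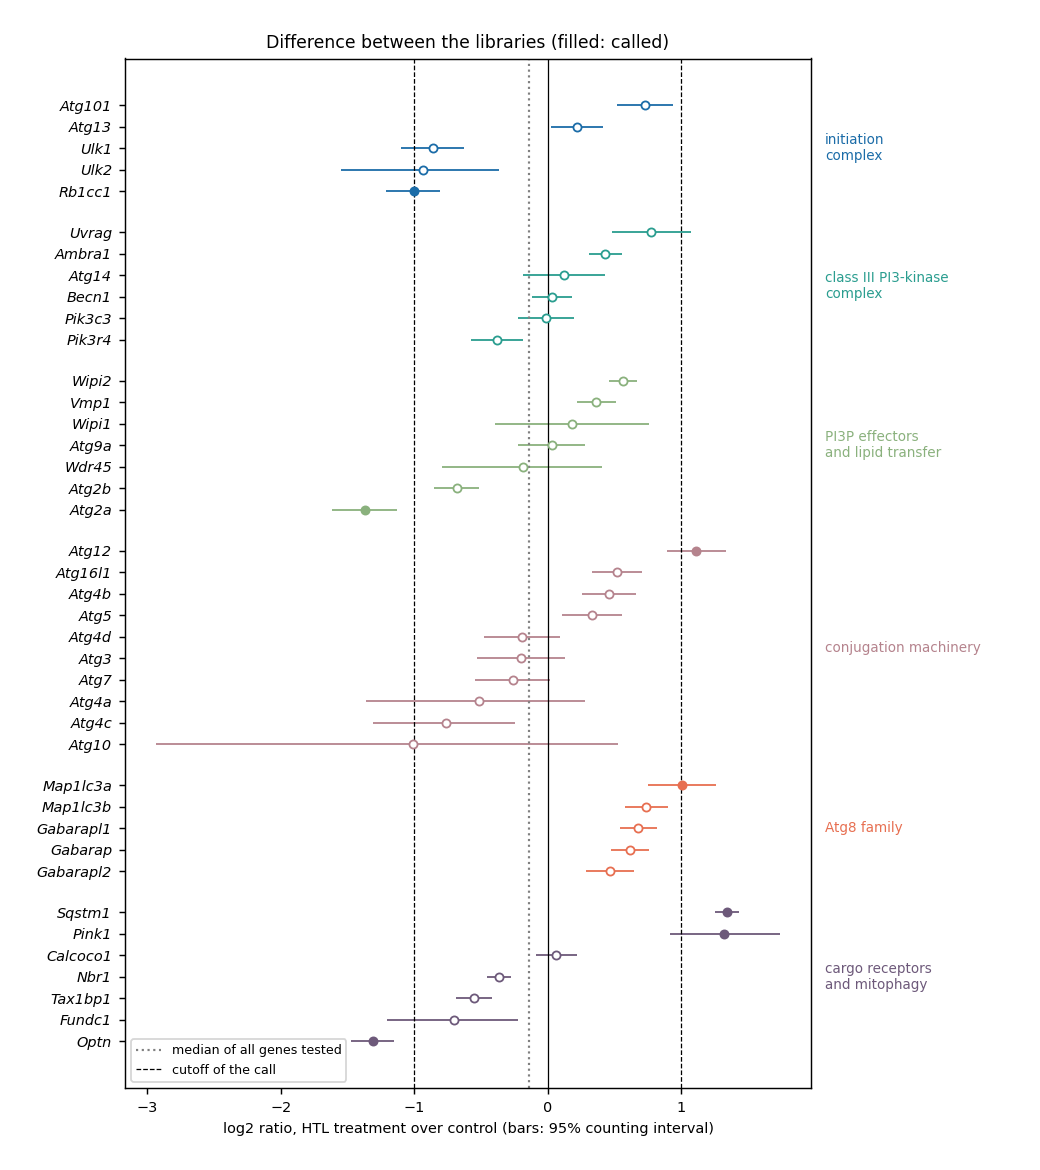
Log2 ratio of HTL treatment over control for the 40 genes, by role, with 95% counting intervals, the cutoffs of the call at -1 and 1 and the median of all genes tested (dotted). Filled points are the 7 called genes, and the widest interval belongs to Atg10, which rests on 12 and 5 reads.

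Within the initiation complex, Ulk1 and Rb1cc1 were lower by the adjusted p and Atg101 was higher, and 1 of the 5 genes was called. Of all genes tested, 24.1% were lower and 14.5% higher by the adjusted p, and 10.8% were called. Rb1cc1 (gene ID 12421; chromosome 1, 6196278 to 6266729, plus strand), also known as FIP200, is the scaffold of the complex and counted 669 control and 293 HTL reads. Its log2 ratio was -1.004 (-1.21 to -0.81), at the edge of the call. Ulk1, the main kinase of the complex, went from 458 to 222 reads, a log2 ratio of -0.86 (-1.10 to -0.62), with an adjusted p of 5.59e-13 in the exact binomial test but short of the cutoff on size. Ulk2, its relative, rested on 81 and 37 reads, with a log2 ratio of -0.94 (-1.55 to -0.37), and did not pass at an adjusted p of 0.00203 in the exact binomial test. The ratio of Ulk1 to Ulk2 in FPKM was 6.32 in the control and 6.70 in the HTL treatment library. Atg101, which stabilizes Atg13, counted 319 and 465 reads and was on the other side at 0.73 (0.52 to 0.94). Atg13, the adaptor that binds kinase and scaffold, was at 0.22 (0.027 to 0.42). Of the 5 genes, 3 had intervals below 0 and 2 above, and of the 13442 genes tested 4867 and 3117 did.

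The class III PI3-kinase complex, which makes the lipid PI3P on the growing membrane, held 0 called members of 6, where 10.8% of all genes tested were called. The catalytic subunit Pik3c3 counted 404 and 352 reads, which gave a log2 ratio of -0.013 (-0.22 to 0.20) that was above 0 under each other scaling. Becn1, the regulatory subunit bound by Bcl2, counted 774 and 696 reads, giving a log2 ratio of 0.032 (-0.12 to 0.18). Pik3c3 and Becn1, together with Atg14 at 0.12 (-0.18 to 0.43), showed no difference that was detectable at this depth. Uvrag, which replaces Atg14 in the endosomal form of the complex, had the highest value of the group, with 162 and 244 reads, its log2 ratio being 0.77 (0.48 to 1.07). Ambra1, which binds Becn1 and Ulk1, was at 0.43 (0.31 to 0.56). The lowest was Pik3r4, the kinase-like partner of Pik3c3, with 535 and 362 reads, its log2 ratio being -0.38 (-0.57 to -0.18).

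Downstream of PI3P, both Atg2 genes were lower and Wipi2 was higher. Atg2 proteins carry lipids from the endoplasmic reticulum into the membrane. Atg2a (gene ID 329015; chromosome 19, 6241668 to 6262335, plus strand) had the lowest log2 ratio of the 40 genes, -1.37 (-1.62 to -1.13), with 553 and 188 reads, and was called. Atg2b went from 812 to 445 reads, a log2 ratio of -0.68 (-0.85 to -0.51). The ratio of Atg2a to Atg2b in FPKM was 1.09 in the control and 0.68 in the HTL treatment library. Wipi2, which reads PI3P and recruits Atg16l1, counted 1310 and 1700 reads, which gave a log2 ratio of 0.56 (0.46 to 0.67). Vmp1, a lipid scramblase of the endoplasmic reticulum, was at 0.37 (0.22 to 0.51). Atg9a, the scramblase of the vesicles that seed the membrane, was at 0.029 (-0.22 to 0.28). The low-level PI3P binders Wipi1 (53 reads in both libraries) and Wdr45 (57 and 44 reads) had intervals that spanned 0.

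In the conjugation machinery, 1 of 10 genes was called, and 3 were higher and 0 lower by the adjusted p alone, beside 10.8%, 14.5% and 24.1% of all genes tested. Atg12 (gene ID 67526; chromosome 18, 46892071 to 46901233, minus strand), the ubiquitin-like protein joined to Atg5, counted 258 and 492 reads. Its log2 ratio was 1.12 (0.90 to 1.34), and it was called. Of its partners in the complex that directs Atg8 lipidation, Atg16l1 was higher by the adjusted p, with 438 and 552 reads and 0.52 (0.34 to 0.70) on the log2 scale. Atg5, with 309 and 342 reads at 0.33 (0.11 to 0.56), did not pass at an adjusted p of 0.00785 in the exact binomial test. The 3 enzymes of the chain had log2 ratios below 0, with intervals that spanned it. Atg7, the activating enzyme of both conjugation systems, counted 255 and 187 reads, giving a log2 ratio of -0.26 (-0.54 to 0.016). Atg3, which transfers Atg8 proteins to the lipid, was at -0.20 (-0.53 to 0.13). Atg10, which transfers Atg12 to Atg5, had the lowest log2 ratio of the group, -1.01 (-2.93 to 0.53), past the cutoff on size but with an adjusted p of 0.305 in the exact binomial test. Of the Atg4 proteases that trim the tails shown above, Atg4b was at 0.46 (0.26 to 0.66) and Atg4c at -0.76 (-1.31 to -0.24), with Atg4a and Atg4d between them and intervals that spanned 0. Atg4b was the most abundant of the 4 per length, with 12.0 FPKM in the control and 16.4 FPKM in the HTL treatment library.

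Log2 ratios tended to be lower for longer transcripts. Over the 40 genes Spearman's rho of the log2 ratio with length was -0.467, and over all genes tested it was -0.180. Genes share the 2 libraries and are not replicates. The 5 Atg8 transcripts were at most 1773 bases long in the table, while those of Ulk1, Ulk2, Rb1cc1, Atg2a and Atg2b had at least 5215 bases. With all genes tested split by length into 10 groups of like size, the median log2 ratio was 0.14 in the shortest group and -0.38 in the longest. After the median of its length group was subtracted, the log2 ratio was -0.63 for Rb1cc1, -0.99 for Atg2a, -0.30 for Atg2b and -0.58 for Ulk1. It was 0.87 for Map1lc3a, 0.79 for Map1lc3b and 0.33 for Gabarapl2. Each of these kept its sign. Sqstm1, Pink1, Atg12 and Optn, all of 2008 to 2492 bases, stayed past the cutoff at 1.39, 1.43, 1.24 and -1.20, whereas Rb1cc1, Atg2a and Map1lc3a did not. The part of length in these differences was not tested further.

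**Figure D3:**
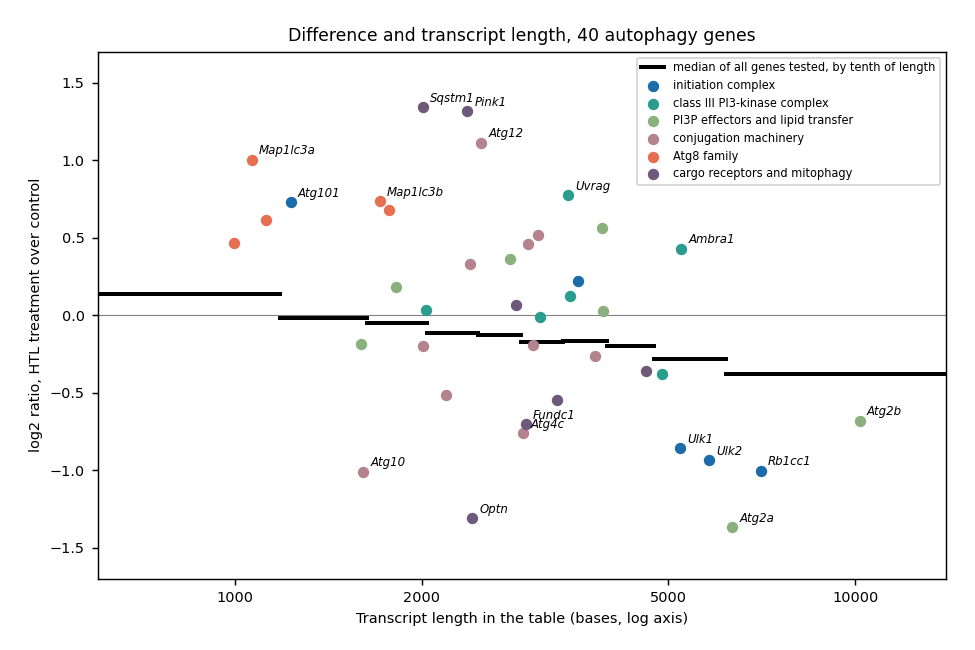
Log2 ratio of each autophagy gene against its transcript length (log axis), coloured by role, with black bars at the median of all genes tested in each of 10 groups of length. The Atg8 genes and Sqstm1 lie above the bars for their length, and Optn, Atg2a, Ulk1, Ulk2 and Rb1cc1 lie below.

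From general knowledge, 12 of the 40 genes were listed as targets of the stress factors ATF4 or CHOP, and other members may be targets too. The 12 were Sqstm1, Nbr1, Atg7, Atg12, Atg16l1, Atg3, Atg5, Atg10, Becn1, Map1lc3b, Gabarap and Gabarapl2. Their median log2 ratio was 0.40, with 8 above 0, 2 called higher and 0 called lower. The other 28 had a median of 0.0081, with 14 above 0, 2 called higher and 3 called lower. Over all genes tested 41.3% were above 0, 2.81% were called higher and 7.98% lower. The 12 had a median length of 2022 bases and the 28 of 3063 bases, and after centring on length the medians were 0.39 and 0.18. Whether ATF4 or CHOP had a part in these values was not tested. The stress factors themselves were higher. Atf4 counted 3047 and 7124 reads, which gave a log2 ratio of 1.41 (1.35 to 1.47), and Ddit3, which encodes CHOP, counted 98 and 385, a log2 ratio of 2.15 (1.84 to 2.49). Of 10 stress response regulators, listed with the stress response known beforehand to be higher, 7 were called higher. The highest was Trib3 at 3.09 (2.86 to 3.33). Ern1 at 0.27 (-0.18 to 0.73) and Eif2ak3 at -0.21 (-0.46 to 0.043) had intervals that spanned 0. Nfe2l2, which encodes the oxidative stress factor NRF2 and is known to act on Sqstm1, was at 0.16 (0.021 to 0.30).

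RefSeq promoters, from 250 bases before to 50 bases after the gene start on GRCm38.p6, matched 34 of the 40 genes. Not among them were Rb1cc1, Becn1, Pik3c3, Atg12, Atg16l1 and Map1lc3a. On either strand, TGATGNAA, the core shared by ATF4 and CHOP elements, was found in 0 of the 34 and in the promoters of 4.51% of all 27025 genes. The core bound by TFEB, TCACGTGA, was in 1 of the 34, Atg3, and in 1.12% of all genes. The antioxidant element core TGACNNNGC was in 5 of the 34 and in 14.0% of all genes, and their log2 ratios went both ways, at 0.74 for Map1lc3b, 0.37 for Vmp1, 0.22 for Atg13, -0.55 for Tax1bp1 and -0.94 for Ulk2. The windows around the matches in Map1lc3b, the Atg8 gene among the 5, and in Atg3 are printed with the match in capitals. They lie on the plus strand, at chr8:121590432-121590459 for Map1lc3b and chr16:45158747-45158774 for Atg3.
Map1lc3b: gcgagtcaccTGACTCGGCtgcggactg
Atg3: gagagtcgagTCACGTGAggccttaggt
A match of these letters is a description of the sequence and not a binding site.

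Related genes outside the set were described in the same way. Of 24 other genes of the autophagy machinery that were tested, 12 were above 0 and 12 below, 0 were called, and the median was 0.12. With TMM, the median of ratios or centring on length 1 was called, Rab33b. The small GTPase gene Rab33b, whose product binds Atg16l1, was at 0.87 (0.63 to 1.12), Wdr45b, another PI3P binder, at 0.73 (0.60 to 0.85), and Wdfy3, a large adaptor for aggregates, at -0.92 (-1.06 to -0.79). The 16 other receptors tested had a median of 0.14, with 0 called higher and 1 called lower, Bnip3. All genes tested had 2.81% called higher and 7.98% lower. The endoplasmic reticulum receptor gene Fam134b counted 73 and 126 reads, giving a log2 ratio of 0.97 (0.55 to 1.41), just short of the cutoff, and was called under the 3 other scalings and after centring on length.

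Nutrient and energy regulators of autophagy had 20 of 30 genes below 0, 1 called higher and 2 called lower. Their median was -0.19, near the -0.14 of all genes tested, of which 41.3% were above 0, 2.81% called higher and 7.98% called lower. With TMM or the median of ratios 14 of the 30 were above 0, and after centring on length 16 were. Sesn2, a leucine sensor that restrains the growth kinase complex mTORC1, counted 447 and 2063 reads, which gave a log2 ratio of 2.39 (2.24 to 2.54), and was called. Rragb, a GTPase that brings mTORC1 to the lysosome, counted 1506 and 331 reads and had the largest fall of the list, -2.00 (-2.18 to -1.83). Tsc1, which holds mTORC1 in check, was also called at -1.21 (-1.41 to -1.01), a call lost after centring on length at -0.83. Foxo3, a transcription factor of starvation responses, was at 0.89 (0.68 to 1.09) and was called with TMM, the median of ratios and centring on length. Mtor itself was at -0.24 (-0.35 to -0.13). Tfeb, the transcription factor of lysosome and autophagy genes, rested on 4 and 18 reads, and its log2 ratio of 2.21 (0.75 to 4.38) was not called at an adjusted p of 0.00244 in the exact binomial test. Its relative Tfe3 counted 1107 and 770 reads and was at -0.34 (-0.47 to -0.20).

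**Figure D4:**
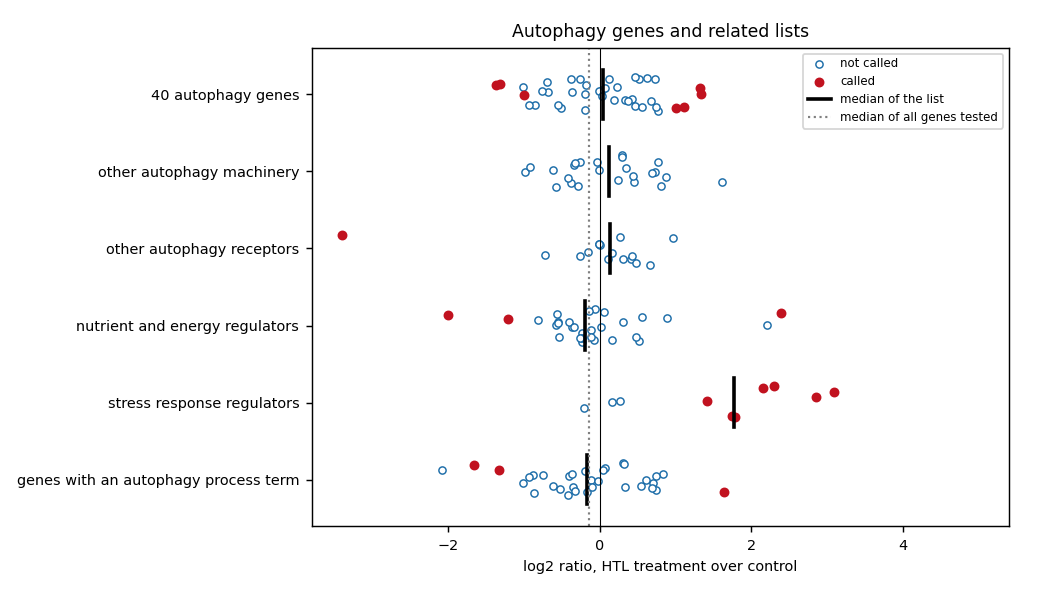
Log2 ratio of HTL treatment over control for the 40 autophagy genes and 5 related lists, 1 point per gene, with called genes in red, list medians as black bars and the median of all genes tested as a dotted line. Of the lists, the stress response regulators lie furthest right, with a median of 1.77, and the others have medians between -0.19 and 0.14. The list of stress response regulators was drawn up with the stress response known to be higher.

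Exons of 8 of the 39 members with a matching symbol in the NCBIM37 annotation overlapped another gene. The partner lay on the opposite strand for Sqstm1, Optn, Rb1cc1, Becn1, Gabarapl1 and Atg4d and on the same strand for Wdr45 and Vmp1. The use of strand in the counting was not stated, so reads from the overlapping stretches of the first 6 may belong to either gene. How reads in the stretches shared by Wdr45 or Vmp1 and a gene on their own strand were divided was not stated either. Estimated counts were whole in both libraries for 38 members. Those of Atg10 and Atg4c were fractional.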

How the data were processed

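RNA-seq of NE4C cells was analysed in 1 control and 1 HTL treatment library, grouped by sample title. The authors mapped the reads to mouse (mm9 in the submitters' processing notes) and used RSEM to estimate gene counts. The mapper, its version and the annotation are not given in the sources used here. The authors deposited estimated counts, not normalized, and FPKM values scaled to transcript length and library size. Their log2 ratio, p-value and FDR columns were not used. The transcript length in the same table is in bases.

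Estimated counts were rounded. The 13442 genes whose reads summed to 10 or more over the pair of libraries were tested by a two-sided exact binomial test against the library totals with Benjamini-Hochberg adjustment over all of them (scipy 1.17.1). For log2 ratios 0.5 read was added. Intervals are exact Clopper-Pearson at 95%. They cover counting error only: molecular identifiers are not described, so reads may repeat a molecule. A count of 0 allows up to 3 reads, or 0.29 CPM in the control and 0.33 CPM in the HTL treatment library. TMM scaling and the exact test with an assumed coefficient of variation used edgeR 4.0.16. The quasi-likelihood test needs replicates and was not run. Coordinates are from GENCODE on NCBIM37, and promoters from RefSeq on GRCm38.p6.

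The members, the role groups, the related lists and the alternatives were chosen with earlier results of these data known. Values were given for every called member, the highest and lowest of each role, Ulk1, Becn1, Atg5, Atg7, Map1lc3b and Sqstm1, the members nearest the cutoff, and the largest called rise and fall of each related list. Other genes named were chosen after their values were seen.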

Additional observations from a re-analysis of the deposited data

How the results depend on the processing

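No paired analysis was possible because there was a single library on each side, and for that reason no library could be left out. The log2 ratios themselves could move in 6 of the 15 alternatives (3 scalings, 5 reads added, FPKM + 1 and centring on length), and in these 39 of the 40 genes kept their sign. Pik3c3 turned from -0.013 to 0.12 with TMM, 0.12 with the median of ratios, 0.080 with the upper quartile and 0.16 after centring on length. The median of the 40 genes stayed between 0.044 and 0.20. With a mean of at least 50 reads, 38 of the 40 were tested.

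The 7 called members became 23 by the adjusted p alone, 14 at a fold of at least 1.5, 4 after centring on length (3 higher, 1 lower), and 0 at a log2 ratio of at least 2 or with an assumed coefficient of variation of 0.2 or 0.4. Under the other alternatives 5 to 8 were called. The 1450 calls over all genes became 5195 by the adjusted p alone, 2280 by the log2 ratio alone, 3165 at a fold of at least 1.5, 287 at a log2 ratio of at least 2, 816 with FPKM + 1, and 120 and 6 with a coefficient of variation of 0.2 and 0.4. Map1lc3a and Rb1cc1 lay so near the cutoff that adding 5 reads took both below it (0.99 and -0.99). Members with few reads, such as Atg10, Atg4a, Wdr45 and Wipi1, could show only large differences.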

Other observations

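Genes that the deposited table lists under an autophagy or mitophagy process term, but that stand in none of the lists above, numbered 38, of which 33 were tested. Their median log2 ratio was -0.17, with 13 above 0, 20 below, 1 called higher and 2 called lower, beside 41.3% above 0, 2.81% called higher and 7.98% called lower over all genes tested. Akt1, a kinase that represses autophagy through growth signals, counted 353 control and 123 HTL reads, a log2 ratio of -1.33 (-1.64 to -1.04). Tnfaip3, which edits ubiquitin chains, counted 177 and 49 reads and had the largest called fall, -1.66 (-2.15 to -1.20). The called rise was Gata4, a transcription factor, on 27 and 75 reads (1.64, 1.01 to 2.35). Among the genes that were not called, the deacetylase gene Sirt1 counted 933 and 1459 reads, giving a log2 ratio of 0.83 (0.71 to 0.95), and the anti-apoptotic Becn1 partners went apart, Bcl2l1 at 0.74 (0.45 to 1.04) and Bcl2 at -0.93 (-1.29 to -0.58).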
